A study of Mus musculus with 4 samples.

Results

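The canonical histone genes were examined across 4 L1210 cell lines as the probes whose deposited gene symbol begins with Hist1h, Hist2h, Hist3h or Hist4h. This rule took 52 of the 55681 gene probes on the array and 45 of the 24561 gene symbols. By symbol they comprised 6 H1 probes for 6 genes, 13 H2a probes for 12 genes, 11 H2b probes for 10 genes, 8 H3 probes for 8 genes and 14 H4 probes for 9 genes. In mm9 coordinates, 39 probes lay in the Hist1 cluster (chr13:21814057-24026527), 10 in the Hist2 cluster (chr3:96024171-96082813), 2 in the Hist3 cluster (chr11:58767908-58769013) and 1 at Hist4h4 (chr6:136752681-136752740).

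L1210 cells are an established line from a mouse lymphocytic leukemia, labelled here as DBA subline 212. All 4 lines had been infected with lentivirus, sorted by flow cytometry for GFP and kept in RPMI 1640 medium with fetal bovine serum, so L1210-control shares the infection and the sort with the others. L1210-Fbxw11a carried the full-length transcript of Fbxw11, an F-box protein of an SCF ubiquitin ligase, whereas the Fbxw11c transcript lacks the second exon and the Fbxw11d transcript lacks the second and the third. The lines are sorted populations under forced expression, and total RNA of each was labelled with Cy3 and hybridised to 1 Agilent mouse array, so no difference below has a replicate check or a p-value.

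Core histones H2A, H2B, H3 and H4 form the nucleosome, and the linker histone H1 binds where DNA enters and leaves it. The genes lie in clusters, have no introns for the most part, and are transcribed mainly in S phase, when new chromatin is assembled. Their mRNAs usually end in a conserved stem-loop in place of a poly(A) tail, although some histone genes also give longer polyadenylated transcripts. Labelling kits of the kind used here commonly start copying from a poly(A) tail, and how that affected these signals was not tested.

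The coding parts of many histone genes of a class are near copies of each other. Each probe holds 60 bases, and aligned with others of their class 8 of 13 H2a, 6 of 14 H4 and 2 of 8 H3 probes matched another at 75% or more of the aligned bases, as did 0 of 6 H1 and 0 of 11 H2b probes. The 4 H4 probes below lie in the coding part, and capitals mark the bases that equal those of the aligned Hist1h4k probe.
Hist1h4k, base 36: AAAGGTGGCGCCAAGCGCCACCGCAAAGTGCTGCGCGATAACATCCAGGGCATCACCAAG
Hist1h4j, base 24: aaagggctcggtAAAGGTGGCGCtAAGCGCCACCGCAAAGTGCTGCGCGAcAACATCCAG
Hist1h4d, base 44: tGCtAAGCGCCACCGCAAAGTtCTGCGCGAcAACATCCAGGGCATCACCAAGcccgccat
Hist1h4c, base 36: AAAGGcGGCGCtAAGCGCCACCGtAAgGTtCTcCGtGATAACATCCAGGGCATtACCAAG
Over the aligned stretch, the Hist1h4j probe had 2 mismatches to the Hist1h4k probe, the Hist1h4d probe 4 and the Hist1h4c probe 8. The base numbers give the first base of each probe in its transcript.

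Near the end of the coding part, 8 of the 13 H2a probes shared a run of at least 20 bases with another H2a probe. Capitals again mark bases that equal the first probe.
Hist1h2af, base 333: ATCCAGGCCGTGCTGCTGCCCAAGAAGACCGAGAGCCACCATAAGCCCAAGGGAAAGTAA
Hist1h2ah, base 327: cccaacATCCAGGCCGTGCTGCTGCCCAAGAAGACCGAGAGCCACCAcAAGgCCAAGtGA
Hist2h2aa2, base 333: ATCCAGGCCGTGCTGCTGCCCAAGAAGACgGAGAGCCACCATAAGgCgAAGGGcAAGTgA
Hist1h2ak, base 333: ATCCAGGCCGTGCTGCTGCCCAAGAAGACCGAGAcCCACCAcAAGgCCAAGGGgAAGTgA
In all, 18 of the 52 probes shared such a run with another histone probe, so a signal from these probes may hold RNA of several genes and is not certain to be that of the named gene. The probe of H2afj, a replacement H2A gene outside the rule, shared a run with Hist1h2af, Hist1h2ah, Hist1h2ak, Hist2h2aa2 and Hist2h2ac as well.

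A further 5 probes reached through the 3′ stem-loop. Its motif was searched on the probe's own strand, and in all 7 of the 55681 probes held it (0.0126%). Capitals mark the 16 stem-loop bases, which the mature mRNA of a replication-dependent histone gene contains close to its end.
Hist1h3a: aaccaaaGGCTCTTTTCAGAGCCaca
Hist1h3g: ctttaaaGGCTCTTCTTAGAGCCaccca
Hist1h4m: aactaaaGGCCCTTTTCAGGGCCatccaa
The others were probes of Hist1h3i and Hist2h2bb. The Hist2h2bb probe shared a run of at least 20 bases with those of Hist1h3a and Hist1h3i, so the limit on shared runs holds for these probes too. At the far end, 11 probes began beyond base 600 of the transcript.

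Signals were scaled to each array's 75th percentile and are given on the L1210-control scale. Readings listed without names run from L1210-control through L1210-Fbxw11a and L1210-Fbxw11c to L1210-Fbxw11d, and lists of 3 values give the variant lines in that order. Probes detected well above background in either line of a pair were compared, and a difference of 2-fold or more counted as a call. Of the 52 probes, 48 were well above background on all 4 arrays. Hist1h1d was on none, Hist1h2bq in L1210-Fbxw11d alone, Hist2h3c2 in L1210-Fbxw11c and L1210-Fbxw11d, and the pseudogene Hist3h2bb-ps in the 3 variant lines. Each histone probe was printed on 1 spot, and none was flagged or saturated. As a measure of spot error, the SD between spots of probes of like brightness was taken from 399 probes printed on 10 spots. For a difference between L1210-Fbxw11d and L1210-control it was 0.11 on the log2 scale for bright histone probes, and it leaves out culture, sorting, RNA extraction and labelling. The brightest H2a probes lay above the brightest of those 399 probes, so their spot error is that of the nearest ones.

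Across the series, 62.5% to 68.7% of probes were well above background. The other 3 arrays shared a slide and L1210-Fbxw11d had one to itself, so a slide difference and a difference of this line cannot be told apart. After scaling, 8 E1A spike-in probes differed from L1210-control by 0.13, 0.15 and -0.59 on the log2 scale in the 3 variant lines. All 3 variant lines were set against the same control array, so their differences are not independent. The Fbxw11 probes began at bases 3692 and 3803 of the transcript and differed from L1210-control by 0.03 to 0.31 on the log2 scale, and whether the introduced sequence reached them is not given in the sources used here. Of 11 B lineage markers on the array 7 were well above background on every array and 4 (Cd79b, Ebf1, Igll1 and Rag1) on none.

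In L1210-Fbxw11a and L1210-Fbxw11c, the histone probes as a group lay slightly above the median of all probes, and in L1210-Fbxw11d they lay below it, with the lowest class median for H4. The median log2 ratio to L1210-control over the histone probes was 0.13, 0.11 and -0.21, where the median over all compared probes was within 0.01 of 0 in each. Ratios above 0 were found for 42 of 48 histone probes in L1210-Fbxw11a and 43 of 50 in L1210-Fbxw11c, against 49.68% and 50.04% of all probes. Ratios below 0 were found for 38 of 49 in L1210-Fbxw11d, against 49.9% of all probes. Among the 48 probes well above background everywhere, L1210-Fbxw11d had the lowest of the 4 signals for 38 and L1210-Fbxw11c for 0, while over all probes the shares were 33.0% and 19.3%. L1210-Fbxw11a had the highest signal for 27 of the 48 (56.2%), against 23.1% of all probes.

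Centring on the spike-in probes moved the median of all probes to -0.14, -0.16 and 0.57, and centring on the array median moved it to 0.21 in L1210-Fbxw11d. Directions are therefore given against the median of all probes. On that footing the histone median was 0.13 to 0.15 above for L1210-Fbxw11a and 0.10 to 0.14 above for L1210-Fbxw11c, and it was 0.09 to 0.21 below for L1210-Fbxw11d, under every scaling tried.

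**Figure D1:**
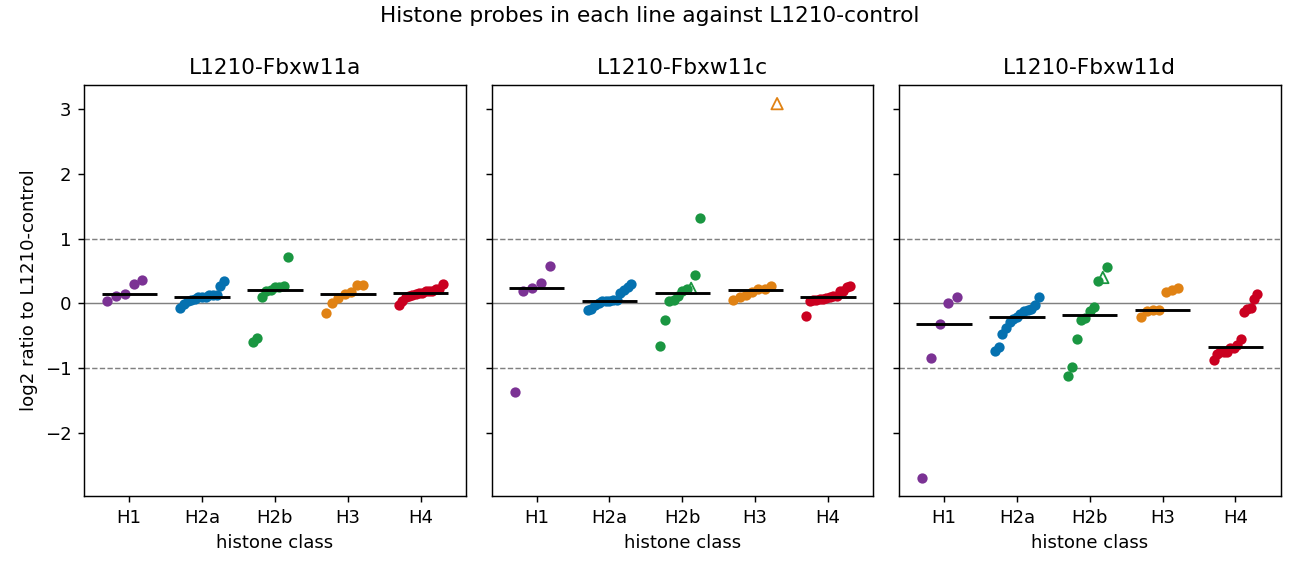
Log2 ratio of each histone probe to L1210-control, by class, in the 3 variant lines. Points are single probes on 1 array each, open triangles are lower bounds for probes not well above background in L1210-control, black lines are class medians and dashed lines mark 2-fold. In L1210-Fbxw11d most H4 probes lie apart from the H3 probes, with medians of -0.67 and -0.10.

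Few histone probes were called at 2-fold, and their share was not below that of all probes in every line. In L1210-Fbxw11a, 0 of 49 histone probes were called, where 5.13% of all compared probes were. In L1210-Fbxw11c 3 of 50 (6%) were called, against 4.47% of all probes, and in L1210-Fbxw11d 2 of 51 (3.92%), against 6.97%. The 5 calls came from 4 probes, for Hist1h1t, Hist2h3c2, Hist1h2bc and Hist2h2bb. Of these, 2 calls depended on the scaling. Hist2h2bb in L1210-Fbxw11d (-1.12) lay between -0.53 and -0.91 under the 5 other scalings, and Hist1h1t in L1210-Fbxw11c (-1.37) lay at -0.97 with normexp background correction.

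Histone H4 is encoded by many genes with the same protein sequence, and its class median was the lowest of the classes in L1210-Fbxw11d. The 14 H4 probes had a median log2 ratio of -0.67 there, with a range from -0.88 to 0.14, against 0.15 in L1210-Fbxw11a and 0.09 in L1210-Fbxw11c. They fell in 2 sets, which were told apart after their values were seen. In the first set, 9 probes for 7 genes lay between -0.56 and -0.88 in L1210-Fbxw11d, and the same probes lay between -0.02 and 0.20 in L1210-Fbxw11a. Counted as more than 0.5 below the median of all probes, the set held 9 probes under the other scalings and 6 with normexp background correction.

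Among them, the Hist1h4d probe at base 312 (chr13:23673749-23673808) read 165199, 177837, 172235 and 105241. L1210-Fbxw11d was low and the other lines lay close together, for a log2 ratio of -0.65. The other Hist1h4d probe, printed above, gave 39942, 44447, 43106 and 21747, a log2 ratio of -0.88 in L1210-Fbxw11d.

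Both Hist1h4k probes gave the same ratio. The one at base 252 (chr13:21842063-21842122) read 91139, 93671, 95523 and 54193, and the one at base 36 read 11487, 13185, 12102 and 6830. Their log2 ratios in L1210-Fbxw11d were -0.75 and -0.75. Hist1h4c (chr13:23790223-23790282) read 1905, 2097, 2042 and 1105, Hist1h4j read 3798, 4334, 4034 and 2346, and Hist1h4h read 390, 385, 341 and 265. In each of these L1210-Fbxw11d was again the lowest line, with log2 ratios of -0.79, -0.69 and -0.56.

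By annotation, the probes of the set lay in more than 1 cluster. Hist4h4 on chromosome 6 read 14907, 16978, 17015 and 9235, a log2 ratio of -0.69 in the last. In the Hist2 cluster on chromosome 3, the Hist2h4 probe at base 230 (chr3:96066951-96067010) read 79153, 88151, 82313 and 47248, a log2 ratio of -0.74. These 2 probes cover other bases of the coding part than the aligned ones above. Whether they also read RNA of H4 genes in the Hist1 cluster was not tested. All 6 H4 probes that matched another at 75% or more belonged to the first set.
Hist4h4, base 160: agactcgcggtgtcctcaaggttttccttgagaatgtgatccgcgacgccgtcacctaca
Hist2h4, base 230: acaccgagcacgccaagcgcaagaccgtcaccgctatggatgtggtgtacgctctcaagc

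In the second set, 5 H4 probes lay between -0.14 and 0.14 in L1210-Fbxw11d. All 3 Hist1h4i probes were among them. The one at base 23 read 1109, 1209.8, 1265 and 1007, and the probes at base 483 and base 581 gave log2 ratios of -0.09 and 0.14 in the last line. The stem-loop probe of Hist1h4m gave -0.08. The Hist2h4 probe at base 3 read 47.4, 55.1, 56.5 and 49.6 and gave 0.07, so the probes of Hist2h4 differed by 0.81 in L1210-Fbxw11d, where a spot SD of 0.43 applied to the dim one. The Hist1h4i probe at base 483 shares a run of bases with a probe of Galns, which is no histone gene.
Hist1h4i, base 23: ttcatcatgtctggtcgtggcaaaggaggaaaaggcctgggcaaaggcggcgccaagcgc
Hist2h4, base 3: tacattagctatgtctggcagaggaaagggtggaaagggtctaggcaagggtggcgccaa

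**Figure D2:**
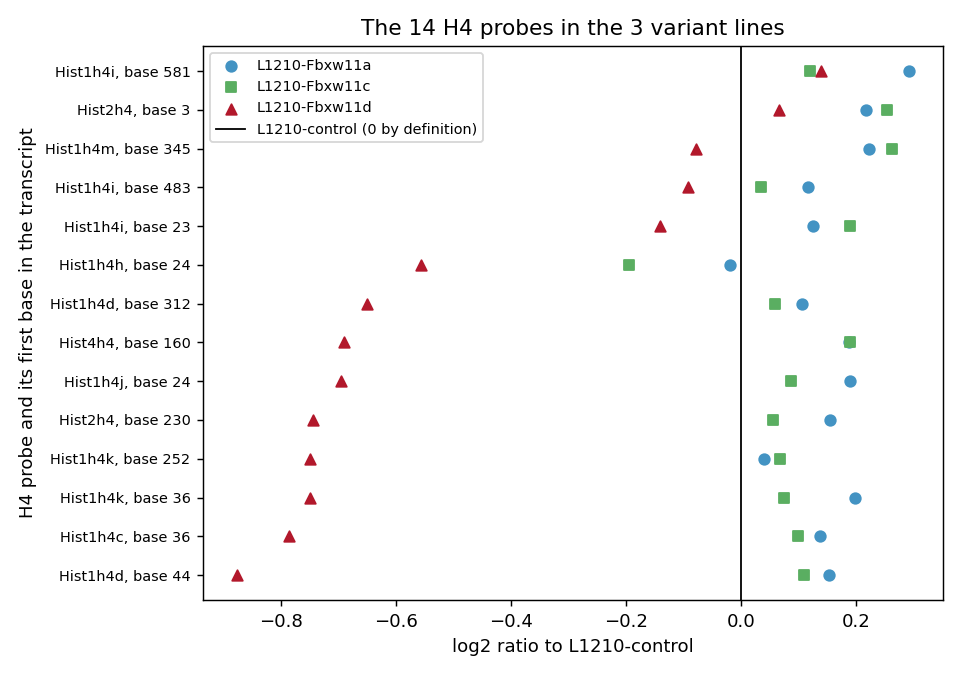
Log2 ratio to L1210-control of the 14 H4 probes, 1 row per probe, in the 3 variant lines (circles, squares and triangles). The lower 9 rows lie between -0.56 and -0.88 in L1210-Fbxw11d and the upper 5 between -0.14 and 0.14, while values in L1210-Fbxw11a and L1210-Fbxw11c lie between -0.19 and 0.29.

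The H4 set was compared with other probes of like brightness and base composition, since both moved with the ratio in L1210-Fbxw11d. All 6 H4 probes with a control signal at least 4 log2 units above the 75th percentile lay below -0.5, a line set after the H4 values were seen. Some of these 6 share coding bases, so they are not 6 separate observations. Of the other histone probes of that brightness, 1 of 2 H1, 1 of 10 H2a and 0 of 1 H3 probes lay below -0.5. Of the non-histone probes, 1.67% of 2278 lay below it at 4 to 6 log2 units above, 1.06% of 1127 at 6 to 8 and 0.528% of 379 at 8 to 10. Among 365 non-histone probes at 4 or more with a GC content of 55% or more, 22 (6.03%) lay below -0.5, and the GC content of the 9 H4 probes ran from 50% to 63.3%. The median of all probes with 60% to 70% GC was -0.17 in L1210-Fbxw11d. Against the other variant lines, with the 75th percentile scaling, all 14 H4 probes were lower in L1210-Fbxw11d than in L1210-Fbxw11a (median log2 ratio -0.77) and 13 of 14 were lower than in L1210-Fbxw11c (median -0.75).

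**Figure D3:**
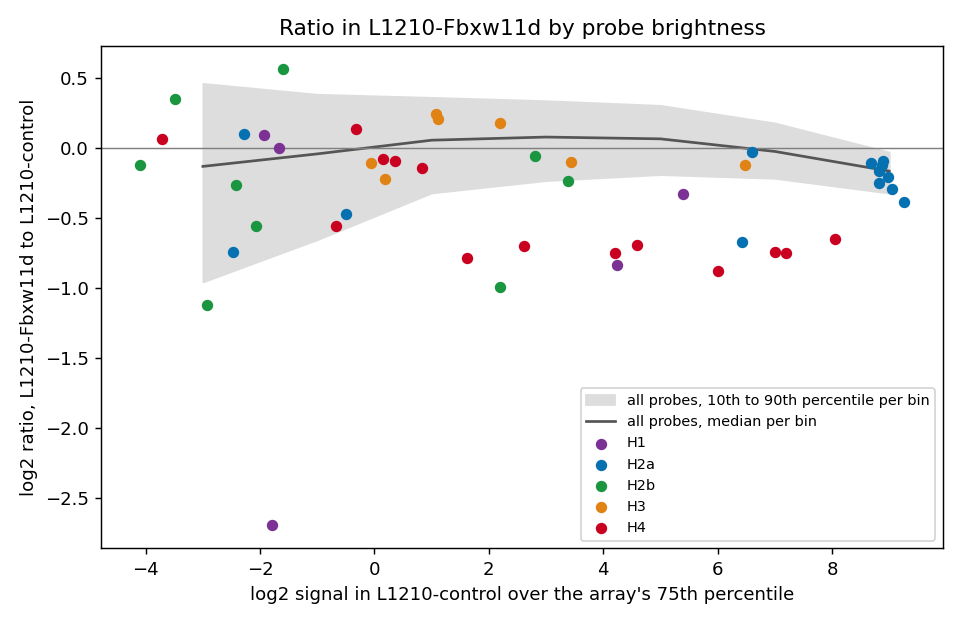
Log2 ratio of L1210-Fbxw11d to L1210-control against the log2 signal in L1210-control for the 48 histone probes well above background on both arrays, coloured by class. The grey line and band are the median and the 10th to 90th percentile of all probes in bins 2 log2 units wide. The H2a probes at 8 to 10 run from -0.09 to -0.38 around the all-probe median of -0.16, with Hist1h2ah under the 10th percentile of -0.32, and the low H4 probes lie under the band at every signal above 0.

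Most H2a probes gave close readings in the 4 lines. The 8 that share bases near the end of the coding part lay between -0.01 and 0.13, between -0.10 and 0.05 and between -0.38 and -0.09. Hist1h2ah (chr13:22127035-22127094) read 381058, 377294, 355131 and 292079. Hist1h2af read 327919, 336639, 307641 and 267917, and Hist1h2ag read 313734, 334880, 314816 and 271441. L1210-Fbxw11d was lowest for all 3, but the median of all 388 probes of that brightness was -0.16 in this line, and with quantile normalization the H2a median moved from -0.21 to -0.04.

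The H2a probes that share no such run varied more. Hist1h2ab, whose probe lies at base 435, read 53471, 68251, 65958 and 33587, so it was high in the first 2 variant lines and low in the last, with log2 ratios of 0.35, 0.30 and -0.67. Hist2h2ab gave -0.74 in L1210-Fbxw11d at signals of 112 and 66.9. Hist1h2aa, a testis form, gave -0.47. Hist3h2a gave 0.10 and the Hist1h2ak probe at base 0 gave -0.03.

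Histone H2B probes had medians of 0.21, 0.15 and -0.18, with 1 call each in the last 2 lines. Hist1h2bm (chr13:21814057-21814116) read 6451, 7720, 7368 and 5493. Hist1h2ba, a testis form, read 4349, 4640, 4506 and 4183. Neither moved by more than 0.26 on the log2 scale.

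Hist1h2bc was the histone probe with the highest measured ratio in each variant line. It read 204, 336, 508 and 302. The 3 variant lines were all above L1210-control, by 0.72, 1.32 and 0.57 on the log2 scale with spot SDs up to 0.14. Its probe (chr13:23784254-23784313) begins at base 632, past the end of the coding part of an H2B mRNA.

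Hist2h2bb, an H2B gene of the Hist2 cluster, had 2 probes that were both low in L1210-Fbxw11d and differed by 0.86 in L1210-Fbxw11a. The 2 probes lie apart on chromosome 3, and whether they read the same transcript was not tested. The stem-loop probe (chr3:96074056-96074115) read 2837, 3401, 3071 and 1428, a log2 ratio of -0.99 in the last line. That ratio was past 2-fold with quantile normalization (-1.05) and in the deposited normalized values (-1.03). The probe at base 1340 (chr3:96082754-96082813) read 82.0, 54.2, 52.1 and 37.7 and so lay below L1210-control in every variant line, by -0.60, -0.65 and -1.12, with a spot SD of 0.37 in L1210-Fbxw11d. The last of these did not reach 2-fold under any of the 5 other scalings. A probe annotated as a lincRNA, sharing a run of bases with it, gave -0.39, -0.70 and -0.51.

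Histone H3 probes ran from -0.22 to 0.24 in L1210-Fbxw11d with a median of -0.10, the class median nearest to 0. With normexp background correction it lay 0.08 above the median of all probes, and with quantile normalization it lay 0.14 below, farther from it than the H2a median. Hist1h3d (chr13:23667979-23668038) read 55587, 56029, 57751 and 51203. Hist2h3b read 6715, 7562, 7365 and 6263, and Hist1h3c read 2829, 3003, 3302 and 3207. The lines lay close together for all 3 genes.

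Hist2h3c2 was the exception. Its signals of 11.2 in L1210-control and 11.4 in L1210-Fbxw11a were not well above background, and it read 154 in L1210-Fbxw11c and was only just detected in L1210-Fbxw11d (13.2). The L1210-Fbxw11c signal was at least 3.09 higher than L1210-control on the log2 scale. Its probe (chr3:96042034-96042093) begins at base 957, and its neighbours Hist2h2be and Hist2h2aa2 gave 0.04 and 0.05 in L1210-Fbxw11c.

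The linker histones had medians of 0.15, 0.23 and -0.32 in the 3 variant lines over 5 measured probes. Hist1h1b (chr13:21871923-21871982) read 25982, 27976, 30496 and 20763. Hist1h1e read 11733, 14506, 13423 and 6570, a log2 ratio of -0.84 in L1210-Fbxw11d, the lowest line for both. Hist1h1c was highest in L1210-Fbxw11c, with readings of 195, 250, 291 and 195, and Hist1h1a lay between 163 and 203 in the 4 lines.

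Hist1h1t, the testis linker histone, showed the lowest ratio of any measured histone probe in both L1210-Fbxw11c and L1210-Fbxw11d. It read 179, 199, 69.4 and 27.7. The first 2 lines were alike, and the others were lower by log2 ratios of -1.37 and -2.69, the latter with a spot SD of 0.58 and at -1.85 with normexp background correction. Its neighbours on chromosome 13, Hist1h2bc and Hist1h4c, gave 1.32 and 0.10 in L1210-Fbxw11c and 0.57 and -0.79 in L1210-Fbxw11d.

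**Figure D4:**
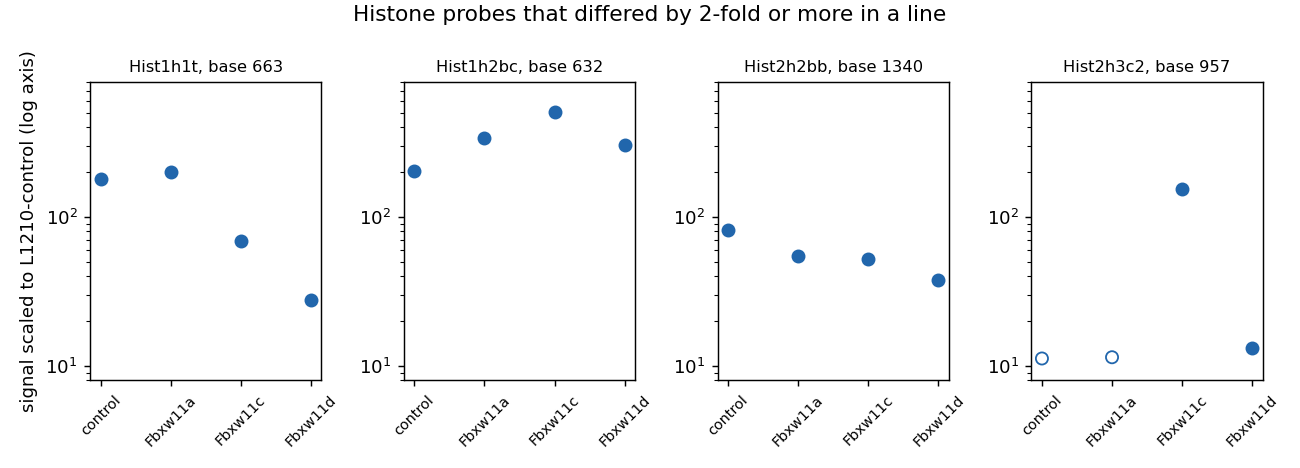
Signal of the 4 histone probes that differed by 2-fold or more from L1210-control in a line with the 75th percentile scaling, on the L1210-control scale and a log axis, 1 array per point. Open circles are signals not well above background. Hist1h1t runs from 179 to 27.7, Hist1h2bc from 204 to 508, Hist2h2bb at base 1340 from 82.0 to 37.7, a call lost under the 5 other scalings, and Hist2h3c2 stands at 154 in L1210-Fbxw11c alone.

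With the 75th percentile scaling and L1210-control as the reference, all 4 called probes were among the 11 that begin beyond base 600, a limit set after the values were seen, and 0 of the 41 that begin earlier were called. Another scaling or reference changed this. The stem-loop probe of Hist2h2bb, at base 433, was past 2-fold with quantile normalization and in the deposited normalized values. Set against L1210-Fbxw11a, L1210-Fbxw11d was past 2-fold for that probe (-1.25), for Hist1h2ab at base 435 (-1.02) and for Hist1h4d at base 44 (-1.03), and set against L1210-Fbxw11c for that of Hist2h2bb (-1.10). Measured on both arrays, 40 of the 41 earlier probes lay between -0.14 and 0.35, between -0.19 and 0.44 and between -0.99 and 0.24, and 8 of the 11 later ones ran from -0.60 to 0.72, from -1.37 to 1.32 and from -2.69 to 0.57. Lower bounds, as for Hist2h3c2, are left out of these ranges. The 11 later probes had a GC content of 35% to 45%. Their control signals were 4.08 to 11733, against 18.4 to 381058 for the earlier ones, and the part of brightness in this was not tested. Over all probes in L1210-Fbxw11d, the 10th to 90th percentile ran from -0.95 to 0.46 where the control signal was -4 to -2 log2 units from the 75th percentile. It ran from -0.21 to 0.18 at 6 to 8. The share of all array probes called on either side of base 600 was not taken. Whether the pattern is particular to histone probes was therefore not tested.

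**Figure D5:**
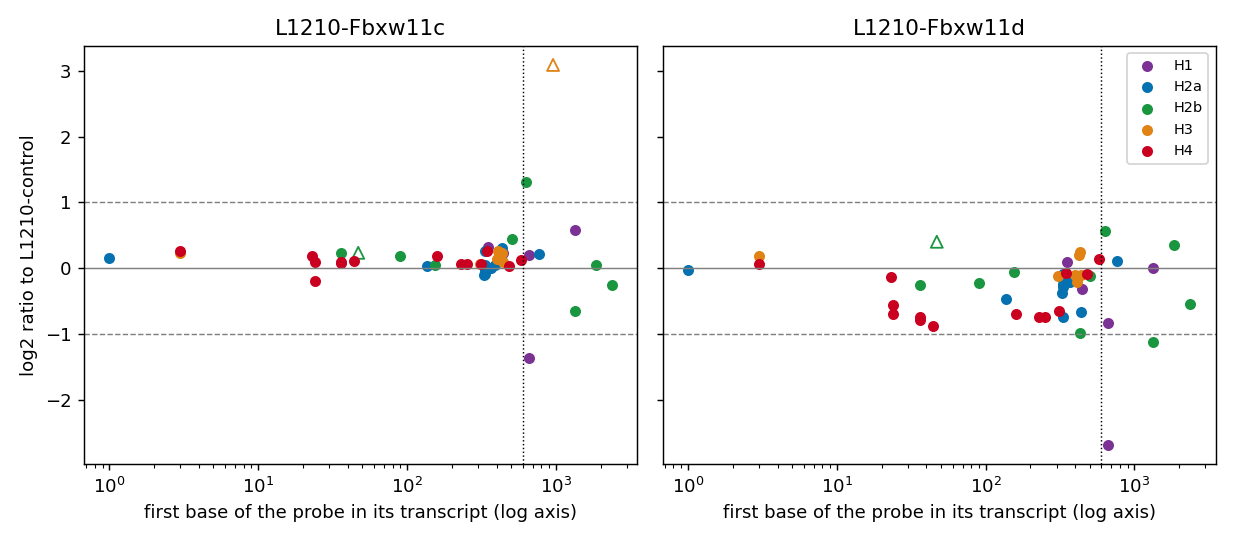
Log2 ratio to L1210-control against the first base of the probe in its transcript (log axis, with base 0 drawn at 1) in L1210-Fbxw11c and L1210-Fbxw11d, coloured by class. Open triangles are lower bounds, the dotted line is base 600 and the dashed lines mark 2-fold, and with this scaling and reference every point past a dashed line lies to the right of the dotted one.

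Promoter letters differed between the classes. RefSeq promoters (GRCm38.p6, 250 bases before to 50 after the start) were found for 39 of the 45 genes, 40 promoters in all. The octamer ATTTGCAT, the element of H2B promoters that Pou2f1 is known to bind, was present on either strand in 5 of 8 H2b and 5 of 12 H2a promoters and in 0 of 6 H1, 0 of 6 H3 and 0 of 8 H4 promoters, against 1.74% of all 32851 promoters. CCAAT was present in all 32 promoters of the other classes but in 2 of 8 H4 promoters, against 37.4% of all, and TATAAA in 21 of 40, against 13.6%. Stretches around the octamer (capitals) are shown for 3 H2b genes in the direction of transcription.
Hist1h2bm, chr13:21722003-21722042, plus strand: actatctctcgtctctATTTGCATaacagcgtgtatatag
Hist1h2bb, chr13:23746628-23746667, plus strand: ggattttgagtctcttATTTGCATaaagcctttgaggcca
Hist2h2bb, chr3:96269636-96269675, plus strand: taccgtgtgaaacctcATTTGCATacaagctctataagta

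Of 17 genes for histone transcription and 3′ end processing, 16 were compared in L1210-Fbxw11a and L1210-Fbxw11c and all in L1210-Fbxw11d, where Npat was detected. In each line 0 of those compared reached 2-fold, and their median in L1210-Fbxw11d was 0.16 with 14 above 0, where the median over all genes was 0.04. Hinfp, a transcription factor of H4 genes, gave 0.05, 0.07 and 0.47. Eri1, an exonuclease that acts on the histone stem-loop, gave -0.30, -0.03 and -0.15. The lowest value in L1210-Fbxw11d was that of Pou2f1 (-0.23), the lowest in L1210-Fbxw11a that of Casp8ap2 (-0.33) and the highest in L1210-Fbxw11c that of Zfp473 (0.55).

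Of 29 S phase genes, all were well above background on every array and 0 reached 2-fold, with medians of -0.12, -0.07 and -0.06 in the 3 lines. Their values in L1210-Fbxw11d ran from -0.51 for Cdt1, a replication licensing factor, to 0.57 for Ccna2, the S and G2 cyclin. Of 20 histone chaperones on the array 0 reached 2-fold, with the highest value for Asf1a (0.85 in L1210-Fbxw11c) and the lowest for Cabin1 (-0.36 in L1210-Fbxw11a). The share of all genes called was 4.45%, 3.88% and 5.75% in the 3 lines.

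Replacement histones are for the most part made from polyadenylated mRNAs and are not tied to S phase, although H2afx also gives a stem-loop mRNA. Of 15 such genes 13 were compared and 1 reached 2-fold. This was H1foo, the oocyte linker histone, which read 127, 127, 120 and 42.2, a log2 ratio of -1.59. H2afx, the variant phosphorylated at DNA breaks, read 6383, 7084, 9577 and 10242, so it was higher in L1210-Fbxw11c and L1210-Fbxw11d by 0.59 and 0.68. H2afz, H3f3a and H3f3b gave 0.01, 0.34 and 0.23 in L1210-Fbxw11d.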

How the data were processed

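Gene expression of 4 L1210 lines was measured on 1 Agilent 1-colour array each. The authors deposited the Feature Extraction output of each array, with a background-corrected signal intensity per spot, and a table of the same linear signals with normalized log2 values (method not given in the sources used here), gene symbols and mm9 positions. The submitters' processing notes name Feature Extraction 9.1, and the file headers give 10.7.1.1.

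Processed intensities were put on the log2 scale and the 75th percentile of all gene spots was subtracted per array, which was 620.2 in L1210-control and 627, 672 and 954 in the 3 variant lines. Outlier-flagged spots, 102 to 167 per array, were dropped, and the mean was taken over the spots of a probe. Detection required the scanner's flag on a share of spots of 0.5 or more. Where it was not on 1 array, the difference is a bound against its own signal or the lowest detected signal there, whichever was higher. Precision is limited by having 1 array per line, and no test was possible. The calling step was checked on simulated data.

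The histone genes and the gene lists (replacement histones, histone transcription and 3′ end processing, chaperones, S phase genes and lineage markers) were chosen with earlier results of these data known. Values in all lines were planned for the 3 brightest probes of each class, called probes, the highest and lowest measured ratio per line and discordant probes of a gene. All other probes given in full were picked after their values were seen. For the lists, genes at 2-fold, or else the extremes, were named, with some others picked later. A gene in a list was represented by its brightest probe. The alternatives tried comprised background correction by normexp (limma 3.58.1, offset 50), quantile normalization, 2 other centrings, the deposited normalized values, other filters, other thresholds and 1 value per gene. Python 3.11.15, numpy 2.4.6, pandas 2.3.3, matplotlib 3.10.9 and R 4.3.3 were used.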

Additional observations from a re-analysis of the deposited data

How the results depend on the processing

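With each array centred on the E1A spike-in probes, the median over histone probes was 0.0024, -0.041 and 0.37 in the 3 variant lines, and the H1, H2a, H2b, H3 and H4 medians in L1210-Fbxw11d were 0.26, 0.38, 0.41, 0.49 and -0.083. Centred on the array median, the L1210-Fbxw11d median was 0.0085 over histone probes, and the class medians in the same order were -0.11, 0.0085, 0.041, 0.12 and -0.45. Both settings move all probes of an array alike, by construction, and the H4 median minus the H3 median stayed at -0.57. Without a filter on dim probes the H1 median was -0.58, the H3 median 0.040 and the H4 to H3 difference -0.71. Normexp background correction gave an H2b median of -0.31. The H2a median was -0.041 with quantile normalization and -0.030 with the authors' deposited normalized values. The cause of these moves was not tested. The count of probes at 2-fold or more in L1210-Fbxw11d was 1 with normexp, with median centring, by the brightest probe of a gene and at 3-fold, and 14 at 1.5-fold. In L1210-Fbxw11a it was 2 at 1.5-fold, and in L1210-Fbxw11c 1 at 3-fold. The share of all probes was not taken at 1.5-fold or 3-fold, so whether these counts are unusual was not tested. Under the 5 other scalings (normexp, quantile, array median, E1A probes and deposited values), 41 of 60 class medians and counts moved by less than the spot SD or stayed within 1.5 times. Among single H4 and named probes 313 of 440 values did so, and with the E1A probes 79 of 88 moved by more. The 5 calls gave 25 values there, of which 6 fell below 2-fold and 0 changed direction, while 3 other values passed it, the stem-loop probe of Hist2h2bb with quantile normalization and the deposited values and Hist1h2bc with the E1A probes (1.15), all in L1210-Fbxw11d. The count of 2 in that line under these 3 settings is therefore not of the same probes. Keeping flagged spots could not change these probes. The number of H4 probes more than 0.5 below the median of all probes in L1210-Fbxw11d was 6 with normexp and 9 under the other scalings. The slide could not be used as a block. No paired analysis was possible because each line has 1 array. Dim probes are limited by spot error, which reached 1.08 for Hist2h3c2 in L1210-Fbxw11d.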

Other observations

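Markers of other cell types were measured in the same arrays. Of 10 T lineage markers 5 were well above background on all 4 arrays, of 10 myeloid markers 7 and of 10 fibroblast markers 6. The summed signal of the detected markers ran from 4545 to 4943 for the T lineage, from 18116 to 21578 for the myeloid list, from 192847 to 206523 for the fibroblast list and from 18814 to 23629 for the B lineage. The brightest in L1210-control were Cd4 (3020) of the T lineage list, Cd68 (7275.5) of the myeloid list and Vim (158713) of the fibroblast list. All 3 were well above background on every array. Cd3d, Cd3g, Lyz2 and Pdgfrb were among those not well above background on any array. Calls among the T lineage, myeloid and fibroblast markers were Col1a2, higher in all 3 variant lines by 1.45, 2.10 and 2.05 on the log2 scale, and Csf1r (-1.12) in L1210-Fbxw11d. The part of cell makeup in the histone values was not tested, and in bulk RNA fewer cells of a type and less RNA per cell cannot be told apart.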
